A study of Equus caballus with 2 samples.

Results

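Tiles of 1000 bp that were rich in CpG sites and carried an intermediate level of DNA methylation in horse skin were followed into a sarcoid of the same animal. A tile counted as dense when more than 20 CpGs were listed in it in either library and at least 3 of these had 10 or more reads in both libraries. Of 10120 dense tiles, 892 had a read-weighted methylation level of 35% to 65% in skin and form the set described here, out of 103489 tiles of any density that had 3 such CpGs. The skin level chose them, so it is given as a description and supports nothing.

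The assay was RRBS (reduced representation bisulfite sequencing), in which the enzyme MspI cuts DNA at CCGG sites and bisulfite turns unmethylated cytosines into uracil, read as T. The groups were a sarcoid (tumour tissue, horse 1) and skin distant from the tumour (horse 1), with 1 library each. Equine sarcoid is a fibroblastic skin tumour associated with bovine papillomavirus. No treatment, age or sex was given for the horse, tissue of either kind holds several cell types, and a change in the mix of cells cannot be told apart from a change of methylation within cells.

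Methylation of CpG is copied to both strands after replication, and CpG-dense stretches of mammalian genomes are mostly kept free of it. Imprinted control regions are a known exception: the copy from 1 parent is methylated and the other is not, so every CpG there reads near the middle of the scale on both strands and in most tissues. A tile can also reach an intermediate level when its cells differ, when methylated and unmethylated CpGs lie side by side in it, or when reads from several copies of a repeat are placed on the same position. RRBS counts at single CpGs do not join CpGs or alleles on 1 molecule, so allele-specific methylation was not measured.

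The sarcoid library held 35970547 reads over the CpG cytosines of 1147734 CpGs and the skin library 48650606 over 1203704 CpGs. In dense tiles the median was 37.3 reads per CpG in the sarcoid and 54.4 in skin, and in the 892 tiles it was 34.5 and 49.0. A median of 26 CpGs were listed per tile, of which 20 were read well enough to be used. On 10 of the 31 chromosomes (5, 6, 7, 12, 18, 21, 22, 25, 28 and 29) the sarcoid library was relatively deeper, by a log2 depth ratio of 0.22 to 0.32 above that of the median chromosome. Both libraries are single, so no value below has a replicate error, and every interval covers the counting of reads or tiles only.

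Most of the tiles stayed intermediate in the sarcoid. Of the 892, 527 (59.1%, exact binomial 95% interval 55.8 to 62.3) also had 35% to 65% in the sarcoid, 213 (23.9%) lay below 35% and 152 (17.0%) above 65%. In the sarcoid the levels ran from 3.23% to 89.3% with a median of 50.4%, against a median of 52.2% in skin. The mean difference, sarcoid minus skin, was -3.02 points with an SD over tiles of 15.9 points, and the median was -1.69. Tiles lower in the sarcoid made up 55.7% (497 tiles). This share was 59.3% in all dense tiles and 51.9% in tiles of lower CpG density with 35% to 65% in skin. A level of at most 20% in the sarcoid was found in 55 tiles and one of at least 80% in 15.

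**Figure D1:**
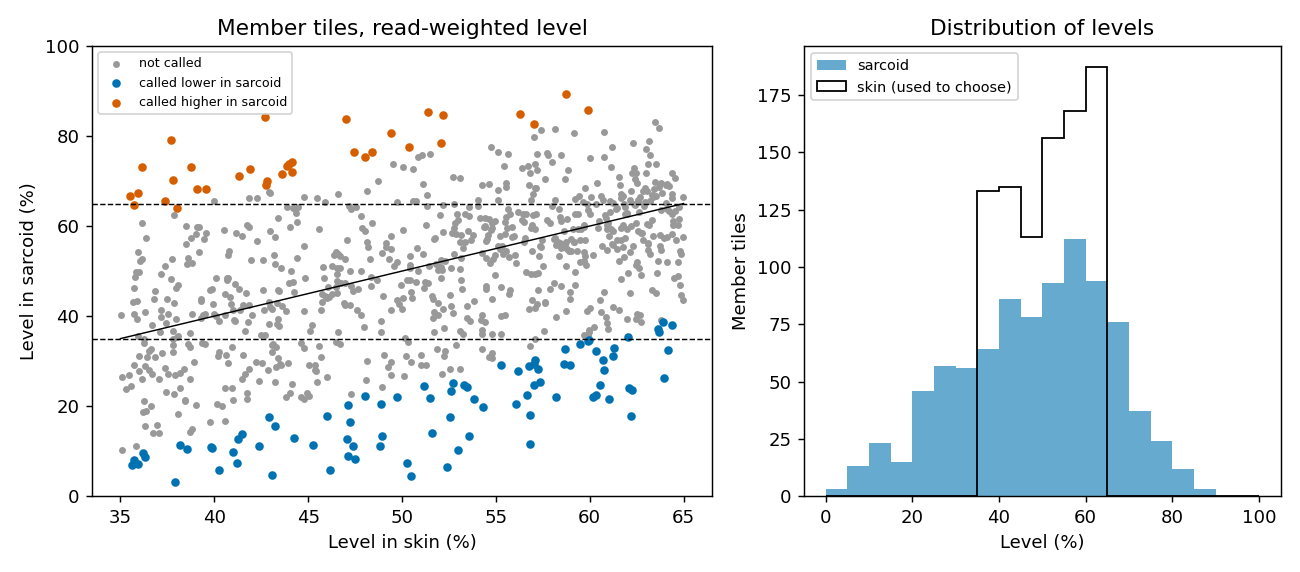
Left, the methylation level (%) of each of the 892 tiles in the sarcoid against its level in skin, with dashed lines at 35% and 65% in the sarcoid, a solid line of equal levels, and called tiles in colour. Right, the number of tiles per 5% step of level in sarcoid and in skin: skin levels end at 35% and 65% because they chose the tiles, while sarcoid levels spread from 3.23% to 89.3%.

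Where a tile lay in the sarcoid went with its place in the chosen range. Of the 268 tiles at 35% to 45% in skin, 41.8% were below 35% in the sarcoid and 9.33% above 65%. Of the 355 tiles at 55% to 65% in skin, 9.86% were below 35% and 27.0% above 65%. In the middle of the range, at 45% to 55% in skin, 63.9% of 269 tiles kept 35% to 65%, 24.5% were below and 11.5% above. The mean difference was -0.33, -4.07 and -4.26 points from the lowest to the highest of these ranges. At the edges of the rule, the tile of chromosome 12 from 28282001 to 28283000 was just inside with 40.3% in the sarcoid and 35.03% in skin, and the tile of chromosome 14 from 35567001 to 35568000 was just outside with 32.1% and 34.9%. At the upper edge, chromosome 22 from 48943001 to 48944000 was inside with 43.5% in the sarcoid and 64.97% in skin, and chromosome 30 from 4344001 to 4345000 was outside with 62.6% and 65.1%.

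Choosing by the skin library fixes part of this picture. With the sarcoid library as the one that chose, 1030 dense tiles had 35% to 65%, and 527 of them (51.2%) also did so in skin. The other 503 came mostly from above: 367 (73.0%) were over 65% in skin and 136 (27.0%) under 35%. The mean difference of those 1030 tiles was -3.55 points, so the sarcoid had the lower mean whichever library chose. When the reads of the skin library were divided into 2 random parts, one to choose tiles and the other to compare, 887 tiles were chosen, and their mean was 48.3% in the sarcoid and 51.2% in the second part of the skin reads, a difference of -2.87 points.

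Larger differences were counted by Fisher's exact test (two-sided) between the reads of the libraries, adjusted over all 103489 tiles, at q below 0.01 and at least 25 points. Of all tiles tested 6.39% were called in this way (4.11% lower in the sarcoid, 2.28% higher), and of all dense tiles 2.5% (1.64% lower, 0.86% higher). Calls were made in 121 of the 892 tiles (13.6%), of which 87 (9.75%) had the lower level in the sarcoid and 34 (3.81%) the higher one. A tile near 0 or near 100% has room to move in 1 direction only, and the rule used the skin side of this contrast, so nothing is read from that share. Tiles of lower CpG density with 35% to 65% in skin, 23669 in number, gave 12.5%, with 7.63% lower and 4.9% higher, and 61.8% of them kept 35% to 65% in the sarcoid. In these shares dense and sparser tiles of the same skin level were alike to within a few points, but the sparser ones held a median of 4 tested CpGs. Counted singly, 1388 of the 18230 CpGs of the 892 tiles were called (7.61%), with 903 lower (4.95%) and 485 higher (2.66%). Of all CpGs tested 2.84% were called, 1.89% lower and 0.954% higher.

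The name imprint-like does not describe most of the set, because a minority of tiles were even along their length under each definition tried. A tile was counted as even in a library when at least 80% of its tested CpGs (5 or more) had 25% to 75%. Of the 886 tiles that could be scored, 74 (8.35%, interval 6.61 to 10.4) were even in both libraries, 206 in skin only, 20 in the sarcoid only and 586 (66.1%) in neither. The share even in both depended on the definition. It was 22.8% at CpGs with both strands covered and under 30 points apart, 21.1% in tiles listing over 40 CpGs, 18.2% with CpGs at 20% to 80%, 1.35% with CpGs at 35% to 65%, and 0.564% where every CpG had to be at 25% to 75%. Sparser tiles of the same skin level were even in both libraries in 10.9%, in the sarcoid in 16.5% and in skin in 42.2%, so the low share was not particular to dense tiles.

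Over all CpGs of the tiles, 20.9% in the sarcoid and 10.4% in skin had at most 20%, and 19.9% and 13.2% had at least 80%. CpGs at 25% to 75% made up 50.8% in the sarcoid and 68.5% in skin. The median SD between CpGs of a tile was 23.0 points in the sarcoid and 21.0 in skin, where sampling of reads alone would give a median of 8.95 and 7.97. By these medians, CpGs of a tile varied more than sampling of reads would give, in both libraries. Tiles holding low, middle and high CpGs together were not counted, and in skin most CpGs were in the middle range.

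The pattern along a tile was shared by the tissues. Across the CpGs of a tile, Pearson's correlation of sarcoid with skin levels had a median of 0.76 over tiles, a description, since CpGs of 1 tile share molecules and libraries. Tiles even in the sarcoid made up 10.6% and tiles even in skin 31.6%, but this gap hung on which library chose: among the 1030 tiles chosen by the sarcoid level, 16.7% were even in the sarcoid and 15.9% in skin. With the reads of both libraries thinned to equal depth per CpG, 9.55% of tiles were even in the sarcoid and 26.6% in skin.

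**Figure D2:**
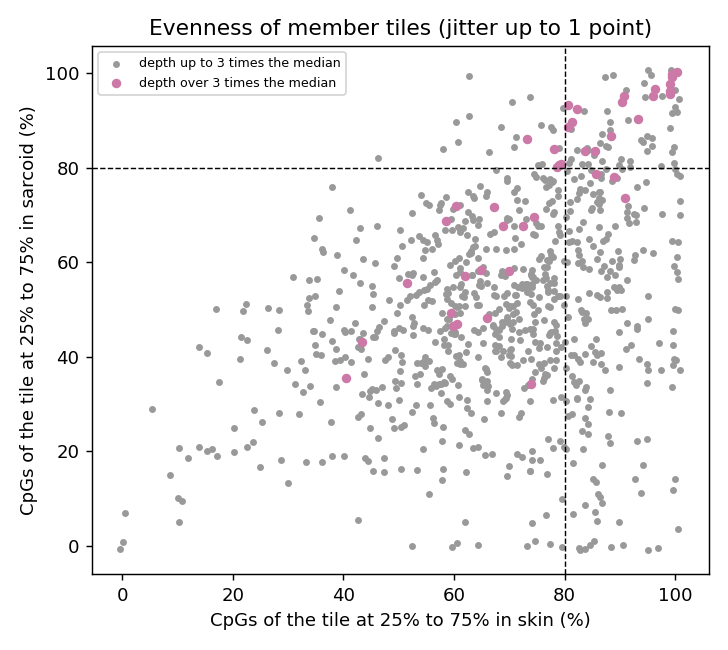
For each tile, the share (%) of its CpGs with 25% to 75% methylation in the sarcoid against that in skin, with dashed lines at 80% and larger points for tiles with over 3 times the usual depth in either library. The 74 tiles even in both libraries are in the upper right corner, and 20 of them are deep ones.

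Strand levels were mostly close over whole tiles, while some single CpGs had strands far apart. Single CpGs hold fewer reads than tiles, and the part of sampling in their strand gaps was not tested. In 656 tiles at least 3 CpGs had 10 reads on both strands in both libraries, and in 600 of them (91.5%) the strand levels lay under 20 points apart in both. The median gap between strands of a tile was 6.05 points in the sarcoid and 5.02 in skin. At single CpGs of these tiles, strands were at least 30 points apart at 15.1% of 6162 CpGs in the sarcoid and 14.5% in skin, against 4.47% and 4.01% in all dense tiles. Dense tiles had a median level of 2.40% in the sarcoid and 2.41% in skin. A gap of 30 points has little room there, so nothing is read from this contrast. Sparser tiles of the same skin level had tile-wide strand levels under 20 points apart in 86.4%, against 91.5% in the set. Of the 892 CpGs of the set that were apart in skin, 64.6% were apart the same way in the sarcoid, so most of these strand differences occurred in both libraries. Merged levels of such CpGs average a high and a low strand.

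Some tiles got their intermediate level from a step between a methylated and an unmethylated stretch. Among 827 tiles with at least 10 tested CpGs, the first and the second part of the CpGs differed by 40 points or more in 77 tiles (9.31%) in the sarcoid and in 75 (9.07%) in skin, and in 40 (4.84%) in both with the same side high. The clearest was on chromosome 12 from 31616001 to 31617000, with 53.7% in the sarcoid (Wilson 95% interval 48.0 to 59.3, 298 reads) and 55.4% in skin (50.9 to 59.8, 473 reads) over 16 CpGs. Its first CpGs were near 0 and its last near 100% in both tissues, with a difference of first minus second part of -76.6 points in the sarcoid and -77.1 in skin and a correlation of 0.99 between the tissues along the tile. Its mean level near the middle was thus held by no part of it: 6.25% of its CpGs in the sarcoid and 0 in skin had 25% to 75%. The tile before it had 11.3% in the sarcoid and 24.4% in skin, and the tile after it 91.0% and 88.1%.

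In 2 other stepped tiles the read-weighted level differed although the profile was shared and no CpG was called singly. On chromosome 7 from 996001 to 997000 the level was 15.9% in the sarcoid and 37.0% in skin over 12 CpGs, none of which had 25% to 75% in either library. There 4 CpGs were higher in the sarcoid and 2 lower, none was called singly, and the correlation along the tile was 1.00. The tile had 66.1 reads per CpG in the sarcoid and 31.3 in skin. On chromosome 28 from 33906001 to 33907000, the level was 29.2% and 43.5% over 36 CpGs, with 7 CpGs higher, 6 lower and none called. Tile levels weigh CpGs by their reads, and how reads were spread over low and high CpGs was not compared. No change of methylation is read from these 2 tiles. The tile of chromosome 22 from 39281001 to 39282000 had low and high CpGs without a single step, with 57.1% in the sarcoid and 54.5% in skin and CpGs from 0 to 100% in both.

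**Figure D3:**
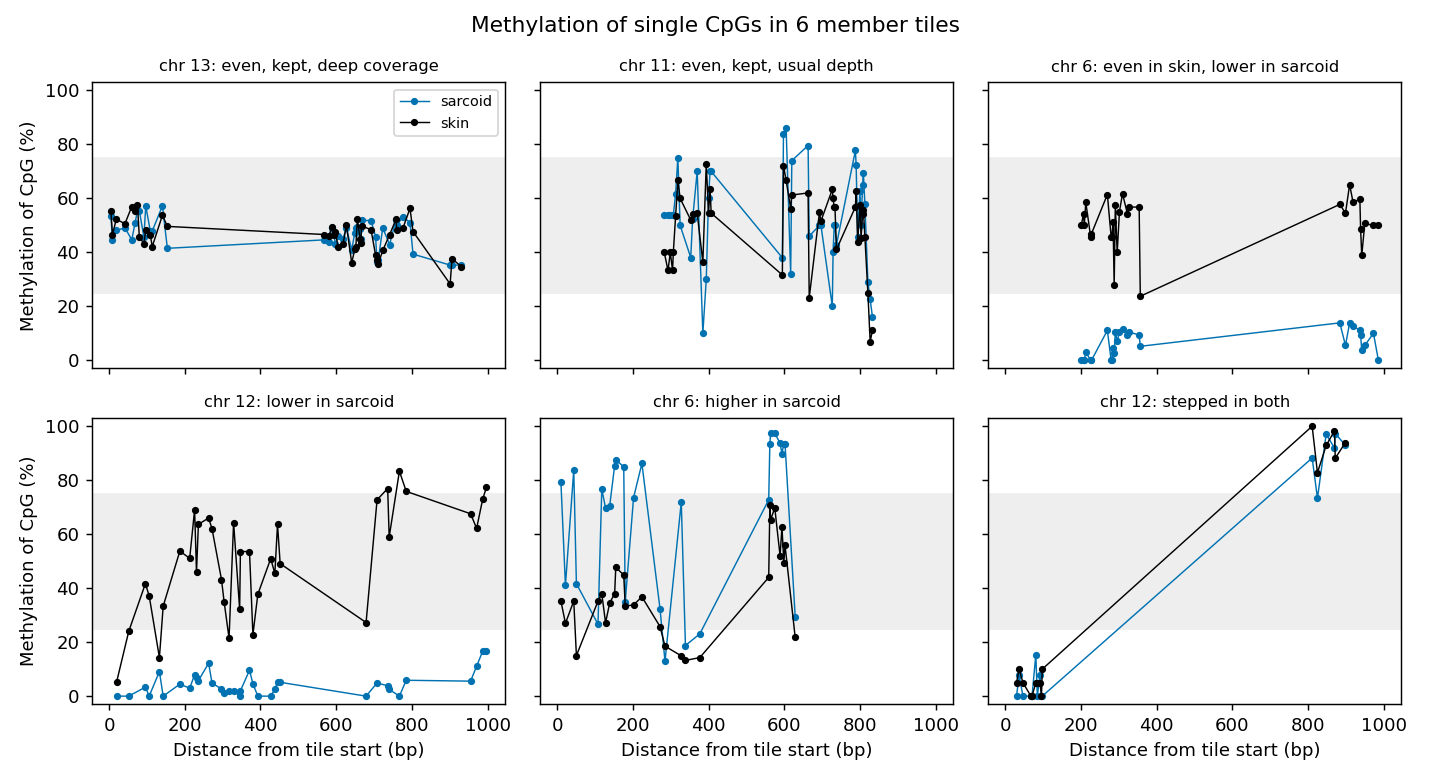
Methylation (%) of each tested CpG in the sarcoid and in skin against its distance (bp) from the start of the tile, for 6 tiles, with the range 25% to 75% shaded. They show a deep even tile of chromosome 13, an even tile of usual depth on chromosome 11, tiles called lower on chromosomes 6 and 12, one called higher on chromosome 6 and a stepped tile of chromosome 12 whose low and high ends coincide in the tissues.

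The 74 tiles even in both libraries had, with strands merged, the intermediate CpGs that an imprinted region would show. Of these, 71 kept 35% to 65% in the sarcoid, 60 differed by under 10 points and none was called. Their mean level was 48.4% in the sarcoid and 49.0% in skin, and the difference ranged from -22.2 to 20.9 points. Evenness at 25% to 75% in the sarcoid nearly sets such a level, so the number that kept it is no finding. The 3 outside it were on chromosome 5 from 93141001 (28.1% in the sarcoid and 42.8% in skin), chromosome 13 from 38796001 (34.9% and 57.1%) and chromosome 24 from 42767001 (28.3% and 41.9%). Between strands, 46 of the 60 that could be compared (76.7%) had levels under 20 points apart, a lower share than the 91.5% of the whole set. An imprinted region would also show even strands, so the 74 tiles are not named as imprinted.

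Depth and repeated CpG spacing moved with evenness. Of the 74, 20 (27.0%) had over 3 times the usual reads per CpG in either library, against 43 of the 892 tiles (4.82%) and 1.38% of all dense tiles. In 30 of the 74 (40.5%) a run of 8 consecutive CpGs had distances between neighbours that recurred elsewhere in the files, against 96 of the 892 (10.8%) and 5.80% of dense tiles. Identical spacing at separate places is what copies of 1 sequence would give, but no sequence was read and copy number was not tested. Left after both conditions were 41 even tiles of usual depth and without recurring spacing.

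The deep tiles also differed least between the tissues. Of the 43, 40 (93.0%) were within 10 points of skin in the sarcoid, 35 kept 35% to 65% and none was called. Of the 849 tiles of usual depth, 411 (48.4%) were within 10 points and 121 were called. Recurring spacing was found in 35 of the 43 deep tiles and in 61 of the 849 others. Deep tiles also have less sampling error, with a median SD from sampling of 5.64 points per CpG in the sarcoid against 9.02 in tiles of usual depth, and the part of depth in these counts was not tested.

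**Figure D4:**
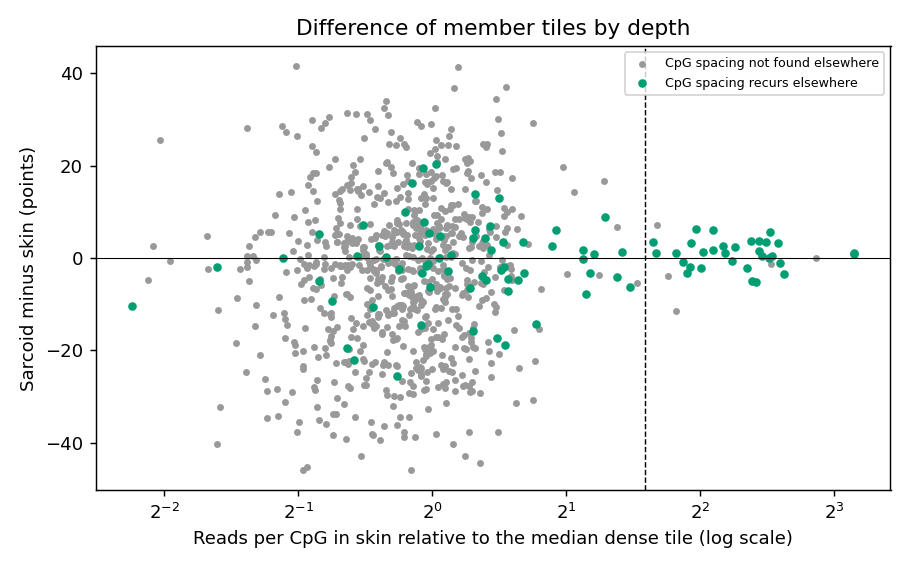
Difference in level (sarcoid minus skin, points) of each tile against its reads per CpG in skin relative to the median dense tile, on a log axis of base 2, with a dashed line at 3 times the median and tiles of recurring CpG spacing in green. Right of the line the points lie close to 0 and most are green, while left of it they spread over more than 40 points to either side.

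Of the 74 even tiles, 22 lay in 4 windows of 1 Mb that held 4 or more each, and the other 52 were spread more thinly. On chromosome 13 from 26000001 to 27000000, 12 of 17 dense tiles were in the set and all 12 kept 35% to 65%, with a mean of 47.8% ± 3.99 in the sarcoid and 47.6% ± 5.08 in skin (SD over tiles, n = 12). All 12 were deep, at a median of 3.06 times the usual depth in the sarcoid and 4.62 times in skin, all had recurring spacing, and 9 were even in both libraries. The tile from 26877001 to 26878000 was the flattest, with 47.3% in the sarcoid (46.0 to 48.6, 5536 reads) and 47.0% in skin (46.1 to 47.8, 13540 reads) over 43 CpGs. Its CpGs lay between 35.3% and 57.3% in the sarcoid and between 28.3% and 57.6% in skin. The plus and minus strands had 49.2% and 47.5% in the sarcoid and 47.8% and 47.5% in skin. Of the 12 tiles, 4 formed an unbroken run from 26879001 to 26883000, with means of 46.6% in the sarcoid and 46.3% in skin.

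Of the 8 tiles with the most tested CpGs among those even in both libraries, 6 lay in this cluster, with 42.6% to 53.7% in the sarcoid and 41.5% to 51.1% in skin.

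The longest run of tiles was 5, on chromosome 1 from 157613001 to 157618000. Its mean was 55.7% in the sarcoid and 57.6% in skin over 137 CpGs, all 5 tiles had recurring spacing and depth averaged 4.46 times the usual in the sarcoid and 4.64 times in skin. Its first tile, even in both libraries, had 47.6% in the sarcoid (46.2 to 48.9, 5200 reads) and 50.8% in skin (49.6 to 51.9, 7503 reads) over 37 CpGs. Chromosome 7 from 52000001 to 53000000 held 13 tiles, 11 of them with recurring spacing, with means of 55.4% ± 9.77 in the sarcoid and 56.9% ± 7.14 in skin (SD over tiles, n = 13). It was a cluster of deep tiles (9 of 13) but not of even ones: 2 were even in both libraries and 8 in neither, and 1 was called lower, by -27.3 points.

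Recurring spacing also came without extra depth. On chromosome 14 from 35713001 to 35831000, 6 separate tiles with 23 to 26 tested CpGs each had 57.8% to 62.7% in the sarcoid and 52.8% to 56.6% in skin. Every one of the 6 was higher in the sarcoid, by 1.79 to 6.85 points, none was called, and 5 were even in both libraries. Their depth was 0.82 to 1.22 times the usual in the sarcoid and 0.98 to 1.35 times in skin. All 6 carried CpG runs of recurring spacing, and whether they share reads was not tested.

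Away from these clusters, some even tiles of usual depth stood alone. These were picked after their values were seen, as the even tiles of usual depth with the most tested CpGs. On chromosome 11 from 24600001 to 24601000 the level was 55.4% in the sarcoid (52.3 to 58.4, 1022 reads) and 48.2% in skin (46.0 to 50.3, 2022 reads) over 41 CpGs, of which 80.5% and 92.7% had 25% to 75%. On chromosome 11 from 18598001 to 18599000 the level was 54.7% and 63.8% over 32 CpGs, and every CpG of it had 25% to 75% in the sarcoid. On chromosome 12 from 31059001 to 31060000 it was 45.7% and 55.7% over 33 CpGs. In these 3 tiles the Wilson intervals of the tissues did not overlap. They cover the counting of reads only and are too narrow, so nothing is read from this.

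Of the same kind, the tile of chromosome 2 from 1295001 to 1296000 was lower in the sarcoid at 35 of 36 CpGs. Its level was 36.1% in the sarcoid (33.7 to 38.5, 1492 reads) and 55.3% in skin (53.2 to 57.3, 2198 reads), with strand levels of 38.0% and 34.7% in the sarcoid and 53.9% and 58.7% in skin. It stayed even while its level was lower along its whole length. Chromosome 10 from 6061001 to 6062000 had 41.5% in the sarcoid and 56.8% in skin, with 29 of 31 CpGs lower and 3 called singly. Chromosome 13 from 6739001 to 6740000 had 43.8% and 36.8%, with 28 of its 28 CpGs covered on both strands and strand levels of 44.1% and 43.3% in the sarcoid and 37.7% and 35.5% in skin.

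Evenness in skin did not go with keeping the level. Of the 280 tiles even in skin, 158 (56.4%, interval 50.4 to 62.3) kept 35% to 65% in the sarcoid, 77 (27.5%) were below and 45 (16.1%) above, and 52 (18.6%) were called, 37 lower and 15 higher. Of the 606 tiles uneven in skin, 365 (60.2%, interval 56.2 to 64.2) kept that range and 69 (11.4%) were called. The 37 even tiles called lower were mostly emptied in the sarcoid. They had a median of 13.5% in the sarcoid and 47.5% in skin, 24 of them had at most 20% in the sarcoid, and in 21 of those 24 every tested CpG was lower. The median SD between their CpGs was 8.09 points in the sarcoid and 14.6 in skin.

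The 6 tiles with the widest loss lay on 6 chromosomes, and 3 of them were even in skin. On chromosome 6 from 70894001 to 70895000 the level was 7.37% in the sarcoid (6.19 to 8.75, 1601 reads) and 50.3% in skin (48.0 to 52.5, 1866 reads). All 29 tested CpGs were lower and 26 were called singly, with 0 to 13.9% at single CpGs in the sarcoid and 23.8% to 65.1% in skin. Both strands took part, with 7.63% and 8.22% on plus and minus in the sarcoid and 48.4% and 49.9% in skin. The tiles on either side were low in both tissues, at 2.98% and 11.2% in the sarcoid and 20.6% and 24.4% in skin.

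Other losses were as wide. On chromosome 12 from 28438001 to 28439000 the skin strands had 49.7% and 51.6% and the sarcoid strands 5.0% and 5.29%, and 27 of its 36 CpGs were called singly. The tile after it had 9.09% in the sarcoid and 36.8% in skin. On chromosome 15 from 980001 to 981000, all 21 CpGs were lower, with 0 to 11.1% in the sarcoid and 17.9% to 62.1% in skin, at 21.2 and 27.9 reads per CpG. No CpG of these 3 tiles was above 16.7% in the sarcoid.

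On chromosome 4 from 58191001 to 58192000 the level was 5.86% in the sarcoid (4.72 to 7.26, 1330 reads) and 46.2% in skin (43.7 to 48.7, 1574 reads), with 25 of 26 CpGs lower. The tile of chromosome 12 above and the remaining 2 were uneven in skin. Chromosome 10 from 17682001 to 17683000 had 11.6% in the sarcoid and 56.8% in skin, with an SD between its 10 CpGs of 5.08 points in the sarcoid and 24.8 in skin. Its flank before was high in both tissues, at 93.9% and 91.3%. Chromosome 25 from 36577001 to 36578000 had 10.2% and 53.0%, and its first part exceeded its second by -3.21 points in the sarcoid and 36.9 points in skin.

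A run of 3 neighbouring tiles was lower together on chromosome 11 from 36860001 to 36863000. Their levels were 11.1%, 8.06% and 12.7% in the sarcoid and 47.4%, 35.7% and 41.3% in skin, over 23, 5 and 22 tested CpGs, and each was called. It was the longest run of called tiles in the set. Depth was near the usual in both libraries, on average 0.84 times in the sarcoid and 0.83 times in skin.

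Fewer tiles were called higher in the sarcoid than lower. The 34 called higher had a median of 73.6% in the sarcoid and 43.7% in skin, and 15 of them were even in skin. None was even in the sarcoid, which a level that high nearly fixes. Their coverage was lower than usual in the sarcoid, with a median of 26.5 reads per CpG in the sarcoid and 43.0 in skin, against 36.7 and 45.2 for those called lower. The part of coverage in this was not tested.

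On chromosome 6 from 69948001 to 69949000 the level was 73.2% in the sarcoid (70.8 to 75.4, 1387 reads) and 38.7% in skin (36.7 to 40.8, 2114 reads), with 26 of 28 CpGs higher and 15 called singly. Its strands had 77.6% and 81.1% in the sarcoid and 47.5% and 43.4% in skin, and the tile after it had 40.5% and 14.9%. The level on chromosome 15 from 698001 to 699000 was 85.2% in the sarcoid (80.8 to 88.8, 305 reads) and 51.4% in skin (47.6 to 55.1, 685 reads), with 15 of 16 CpGs higher and 1 called singly. These tiles gained over nearly all their CpGs, at unlike depth.

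The remaining tiles of the 6 with the widest gain behaved alike. Chromosome 6 from 68311001 to 68312000 had 84.2% in the sarcoid and 42.7% in skin, and chromosome 13 from 41375001 to 41376000 had 79.0% and 37.7%. On chromosome 26 from 41766001 to 41767000 the levels were 83.7% and 47.0%, and on chromosome 7 from 37328001 to 37329000 they were 73.2% and 36.2%. Each had more CpGs higher than lower, by 13 to 2, 16 to 4, 21 to 2 and 11 to 1. Reads per CpG were 17.9 to 30.8 in the sarcoid and 26.9 to 79.5 in skin in these 4 tiles. On chromosome 8 a pair of neighbours was higher together: from 8746001 the levels were 74.2% and 44.2%, and from 8747001 they were 70.03% and 48.7%, of which the first was called.

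Neighbours of tiles called lower were mostly lower too. Next to such tiles there were 90 tested tiles that were not in the set, and 68 of them (75.6%) were lower, by a median of -11.9 points. Next to tiles called higher there were 30, of which 15 were lower, and their median difference was 0.24 points. Beside tiles that were not called 614 neighbours had a median of -1.62 points, with 59.3% lower. The difference between these sets of neighbours was not tested. Adjacent tiles can share reads at their border.

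Most tiles had no other of the set directly beside them: 813 stood alone, 29 runs held 2 tiles, 4 held 3, and single runs held 4 and 5. Where both flanks were tested, in 212 tiles, at least 1 flank was itself at 35% to 65% in skin for 115 (54.2%), and both flanks were at most 20% in skin in 4 (1.89%), against 32.9% of dense tiles. Sparser tiles of the same skin level gave nearly the same shares, with at least 1 such flank in 55.03% and both flanks at most 20% in 1.56%.

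By position, the set was gathered towards chromosome ends and on a few chromosomes. Within 5 Mb of the first or last listed CpG of a chromosome lay 42.9% of the 892 tiles, against 27.1% of all dense tiles. The set took 16.2% of the dense tiles of chromosome 13, 16.0% of chromosome 7, 14.9% of chromosome 29 and 14.3% of chromosome 12. The smallest shares were 2.09% on chromosome 20 and 2.17% on chromosome 5. The first 4 Mb of chromosome 7 held 94 of the tiles among 440 dense ones, with a mean of 43.5% in the sarcoid and 51.4% in skin. There 62 of 94 were lower, 11 were called lower and none higher, and 2 were even in both libraries. On the rest of chromosome 7 the means of 60 tiles were 50.1% and 52.6%, and 32 of them were lower. Of these 60, 7 (11.7%) were called lower and 2 higher, against 9.75% and 3.81% in the whole set. The share called lower was thus alike in both parts of the chromosome.

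Chromosome 3 from 32000001 to 33000000 held 18 tiles of 48 dense ones. Their mean was 38.6% in the sarcoid and 54.5% in skin, with none called higher and none even in both libraries. Of the 18, 15 (83.3%) were lower in the sarcoid, against 55.7% of the whole set. Called lower were 6 (33.3%, exact binomial 95% interval 13.3 to 59.0), against 9.75% of the whole set and 1.64% of all dense tiles. The difference from the set was not tested. Depth there was below the usual, at a median of 0.78 times in the sarcoid and 0.63 times in skin.

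**Figure D5:**
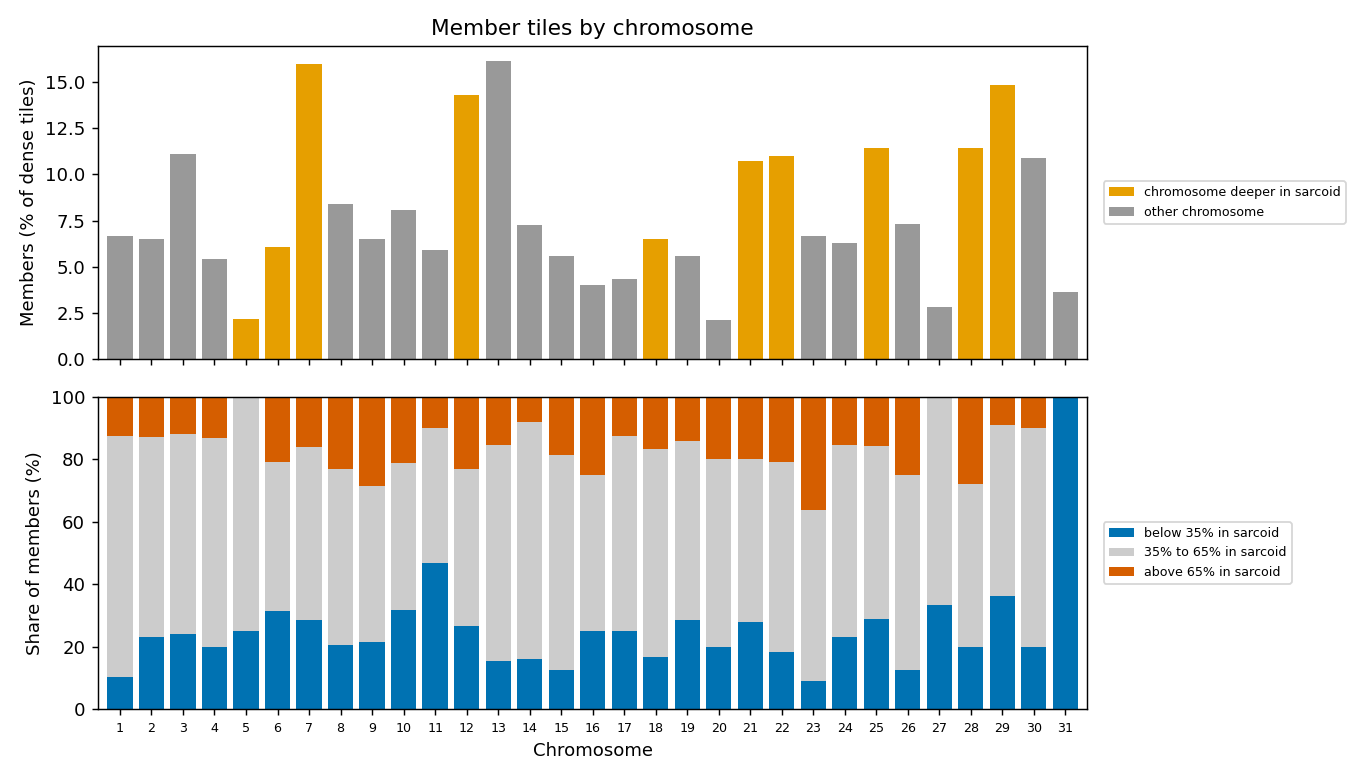
Top, the share (%) of each chromosome's dense tiles that had 35% to 65% in skin, with the 10 chromosomes of deeper sarcoid coverage in orange. Bottom, the share (%) of those tiles that lay below 35%, at 35% to 65% or above 65% in the sarcoid: chromosomes 7 and 13 hold 154 and 96 tiles, while chromosome 31 holds only 2, both below 35%.

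Chromosomes of deeper sarcoid coverage held 386 of the tiles (43.3%, against 33.8% of dense tiles). There 212 (54.9%, interval 49.8 to 59.96) kept 35% to 65% and 12.2% were called lower, with a mean difference of -4.39 points. Of the 506 tiles of the other chromosomes, 315 (62.3%, interval 57.9 to 66.5) kept that range and 7.91% were called lower, with a mean difference of -1.98 points. Shares called higher were 3.89% and 3.75%. Of all 253 dense tiles called in either direction, those of the set included, 121 (47.8%) lay on the deeper chromosomes, against 33.8% of dense tiles. The set is part of these tiles, so this share cannot tell whether more calls on these chromosomes were particular to it. Among tiles even in skin, 46 of 100 kept their range on the deeper chromosomes and 112 of 180 on the others. Depth enters the calls, and its part in the levels was not tested.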

How the data were processed

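Per the labels' protocols, RRBS libraries were made from tissue DNA and sequenced with 75 bp single-end reads. FastQC, BSMAP and methylKit are named per the submitters' processing notes, without settings, and the genome build is not given in the sources used here. Deposited files list coverage, a read count per CpG cytosine and strand, and the percent of C and T, per the file headers. The authors' table of chromosome 1 was not used, and 0 columns of other samples were found.

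Methylated reads were coverage times percent, rounded. Strands were summed. The comparison used 875729 CpGs with 10 or more reads in each library, leaving out the 0.1% with most reads (over 403 in the sarcoid or 574 in skin). Tiles of 1000 bp were tested with Fisher's exact test and Benjamini-Hochberg adjustment, which compares these 2 libraries and not the conditions. PCR reads are not independent molecules and a read spans several CpGs, so intervals (Wilson for levels, exact binomial for shares) cover counting error only and are too narrow. Differences are sarcoid minus skin.

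Recurring spacing means 8 consecutive CpGs, at most 100 bp apart and spanning at least 60 bp, whose distances occur elsewhere in either orientation. Usual depth is reads per CpG relative to the median dense tile. The tiles and rules were chosen with earlier results of these data known. Tiles named were, by rule, the 8 even tiles with most CpGs, the 6 of widest called loss and gain, and the 4 of widest spread between CpGs; others were chosen after their values were seen. No genome of the build was at hand, so no gene or sequence is named. Computation used SciPy 1.17.1, statsmodels 0.14.6 and numba 0.67.0 under Python 3.11.15, with NumPy 2.4.6 and pandas 2.3.3 for tables and matplotlib 3.10.9 for figures. The test was checked on simulated data.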

Additional observations from a re-analysis of the deposited data

How the results depend on the processing

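No paired analysis was possible because each tissue has 1 library, so the horse gives a single pair. The share of tiles even in both libraries (8.35%) moved most: it was 6.59% at 5 reads per CpG and 12.01% at 20, 10.7% for tiles at 40% to 60% in skin and 6.40% at 30% to 70%, 21.1% in tiles listing over 40 CpGs, 10.4% on the plus strand, 22.8% at CpGs with both strands covered and under 30 points apart, and 10.9% without the deeper chromosomes. With CpGs at 20% to 80% it was 18.2%, at 35% to 65% it was 1.35%, and with all CpGs at 25% to 75% it was 0.564%. In alternatives added after seeing the data it was 6.41% without tiles over 3 times the usual depth and 5.56% without recurring spacing. The share that kept 35% to 65% (59.1%) was 53.4% at CpGs of agreeing strands, 63.0% with tiles shifted by 500 bp and 51.2% for tiles chosen by the sarcoid level. The share lower in the sarcoid (55.7%) was 52.3% at agreeing strands and 63.2% for tiles chosen by the sarcoid level. Calls numbered 11 in tiles listing over 40 CpGs and 59 without the deeper chromosomes, where fewer tiles were tested. Tiles with even strands were 57.8% with strands under 10 points apart. On deeper chromosomes 94.7% of tiles even in both libraries kept their range, which evenness in the sarcoid nearly sets, so it is no finding. Direction was scored for called named tiles only. Their 99 values kept direction and call, which their wide differences nearly set. A setting that left a named tile with too few CpGs gave no value for it. Of the values of other named tiles, 41 moved and 125 did not. Reads per CpG limit the scoring of evenness, since at 10 reads a CpG can leave the range by sampling.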
